A study of Saccharomyces cerevisiae with 10 samples.

Results

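The 39 genes described here encode nuclear-encoded proteins of the budding yeast respiratory chain and of the mitochondrial ATP synthase. They were taken by name from the gene annotation of the array, where they make up 39 of 5449 named genes, and each was read by 1 probe set. They comprise 3 NADH dehydrogenases, 4 subunits of complex II, 9 of complex III, 2 cytochromes c, 9 subunits of complex IV and 12 of the ATP synthase. The rule names them by function and uses no measured value, but the list was drawn up with earlier results of these data known.

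Transcript levels were measured in strains of Saccharomyces cerevisiae lacking a member of the THO or TREX complex, which accompanies RNA polymerase II and couples transcription to the export of mRNA. Wild type W303-1A (WT) was read on 3 arrays and hpr1∆ (strain SChY58a, hpr1∆::kanMX4) on 3. The sub2∆ strain (DLY23 sub2∆, sub2∆::HIS3) and the tho2∆ strain (RK2-6C, tho2∆::KanMX4) were read on 2 arrays each. All 4 strains are MATa and carry ura3-1, trp1-1 and his3-11,15, besides can1-100 and ade2-1 and the leu2 allele with its mutations 3 and 112, so WT shares these alleles with the mutants. The sub2∆ strain also carries HIS3 at its deletion, unlike WT and the other mutants, so the strains are not matched for that marker. Each mutant is represented by 1 strain, and all cultures were in the mid-log phase in liquid YPAD, a rich medium with glucose and added adenine. Arrays of a strain are called biological replicates, without a statement that they came from separate cultures, so p-values here measure the spread between these arrays.

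The respiratory chain passes electrons from NADH and succinate through coenzyme Q, complex III and cytochrome c to complex IV, which reduces oxygen, and the ATP synthase uses the resulting proton gradient. Budding yeast has no proton-pumping complex I and uses single-protein NADH dehydrogenases on the inner (NDI1) and outer (NDE1, NDE2) faces of the inner membrane in its place. On glucose the cells ferment, and most genes of the chain are partly repressed; the activator Hap4, with Hap2, Hap3 and Hap5, and the heme-responsive factor Hap1 raise their transcription when glucose falls or heme and oxygen are present.

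The values are linear intensities, 1 per probe set and array, and changes are given as differences of log2(intensity + 16) with their standard error from limma. A gene is said to have risen or fallen where the limma p, adjusted by Benjamini-Hochberg over all probe sets tested in that comparison, was under 0.05. The background is the share of all tested probe sets that passed the same rule. Since total RNA of whole cultures was measured, fewer cells with a transcript and less transcript per cell cannot be told apart.

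The median intensity of the 10 arrays lay between 1346 and 1541. Each deleted gene was low in its own mutant. HPR1 read 188 to 209 in hpr1∆ and 517 to 629 in WT, SUB2 54.6 to 104 in sub2∆ and 11974 to 12692 in WT, and THO2 183 to 322 in tho2∆ and 2363 to 2556 in WT. THO2 was also lower than in WT in the other mutants. It read 1308 to 1428 in hpr1∆ (limma adjusted p = 0.004) and 1116 to 1257 in sub2∆ (limma adjusted p = 0.00125). Of the MATa genes, MFA1 and MFA2 read 1635 or more on every array, and of the MATalpha genes MF(ALPHA)1, MF(ALPHA)2 and STE3 read 345 or less; SAG1 read 600.2 to 3782, higher on all mutant arrays than in WT. The other MATa genes were less complete: ASG7 read 78.9 and 98.3 on the WT arrays with a value and 201 to 368 on those of the mutants, and STE2 (4683 to 9776) and BAR1 (679 to 2858) had values in WT and hpr1∆ but on no sub2∆ or tho2∆ array. Empty cells numbered 479 to 811 on the sub2∆ and tho2∆ arrays and 414 on WT replicate 2, but 7 to 66 on the other 5 arrays. Among the 390 values of the 39 genes only 3 were empty, those of NDE2 and CYC1 in WT replicate 2 and of SDH1 in sub2∆ replicate 2. SDH1 was therefore not tested in comparisons with sub2∆.

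WT replicate 1 stood apart for these genes. For 33 of the 37 genes with 3 WT values it exceeded the mean of WT replicates 2 and 3, by a median of 0.20 on the log2 scale and by up to 1.16 (CYC7), while 46.3% of all probe sets did so. The gap was widest for CYC7, NDI1, SDH2, COX5B and SDH4. On the same array HEM13, an oxygen- and heme-repressed gene of heme synthesis, read 10541, against 2419 and 2956 on the other WT arrays. ANB1, a gene repressed by oxygen, read 4056 there against 1141 and 1974, and ROX1, the repressor of both, read 1498 against 2923 and 2757. TIR1, another hypoxic gene, was not raised there and read 12296 against 12579 and 15873. The part of this array's state in the results was not tested beyond the values without it, which are given for each comparison with WT.

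**Figure D1:**
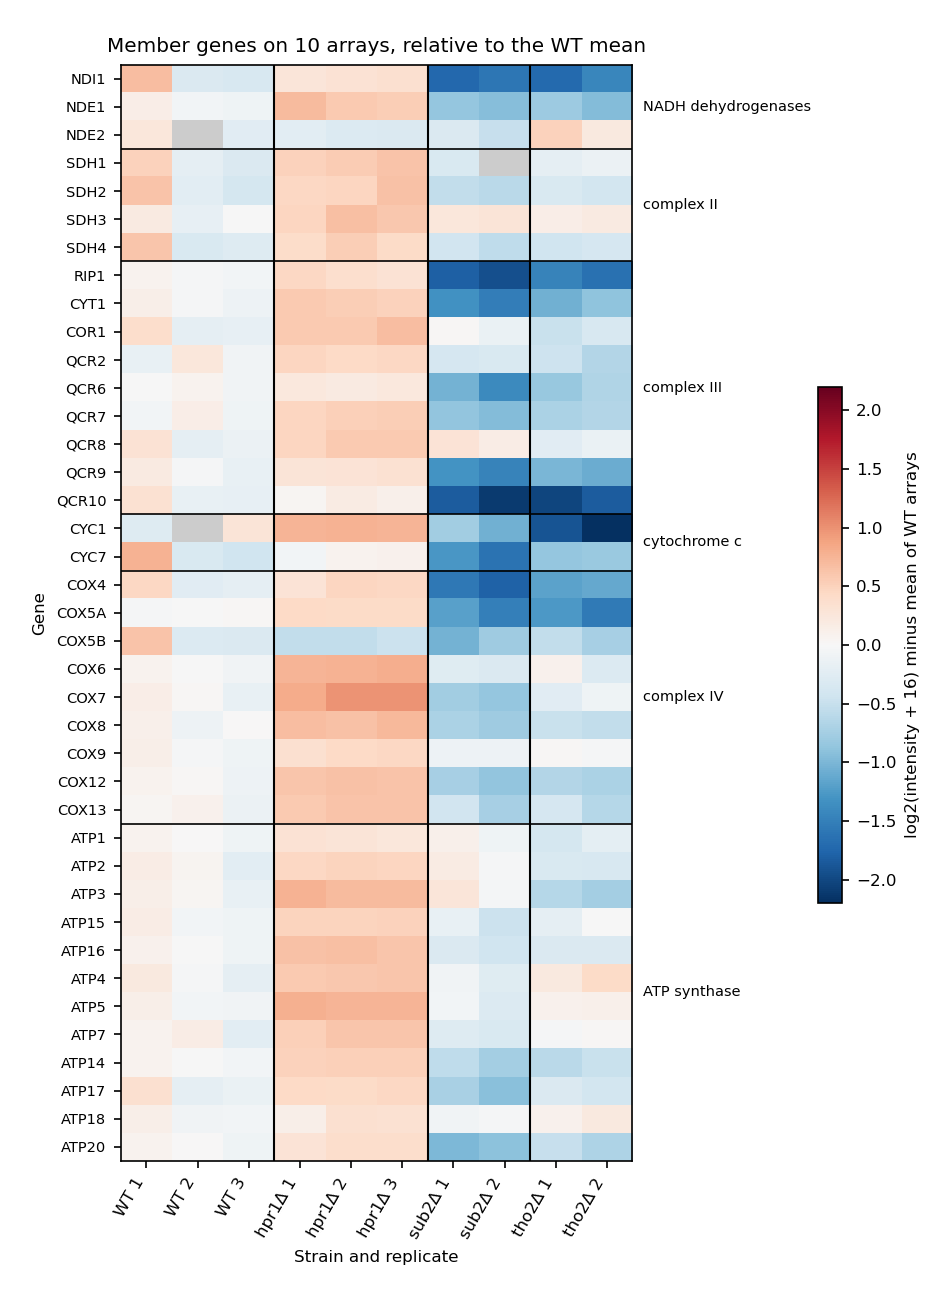
The log2(intensity + 16) of each of the 39 genes (rows, grouped by complex) on each of the 10 arrays (columns), minus the mean of the WT arrays of that gene, with empty cells in grey. Most rows are above the WT mean on the 3 hpr1∆ arrays and below it on the sub2∆ and tho2∆ arrays. In 33 of 37 rows WT replicate 1 exceeds WT replicates 2 and 3 taken as their average, though not always each of them.

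In hpr1∆, the respiratory chain and ATP synthase genes were higher than in WT. Of the 39 genes, 30 rose (76.9%) and 0 fell in the limma test, against a background of 22.8% of probe sets higher and 22.8% lower. All 12 ATP synthase genes rose, as did 7 of 9 genes of complex III, 7 of 9 of complex IV, 2 of 4 of complex II, 1 of 3 NADH dehydrogenases and 1 of 2 cytochromes c. The changes were moderate: the median over the 39 genes was 0.51, against -0.01 over all probe sets tested, and 0 genes reached 2-fold (background 3.07%). All 3 hpr1∆ arrays were above all 3 WT arrays for 29 genes, where 29.1% of all probe sets were. COX7 rose most, 1.90-fold.

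In sub2∆ and tho2∆ the genes were lower than in WT, unevenly between the complexes. In sub2∆ 25 of 38 tested genes fell (65.8%) and 0 rose, against a background of 40.4% lower and 20.8% higher. In tho2∆ 22 of 39 fell (56.4%) and 0 rose, against 32.6% lower and 24.4% higher. The arrays of the mutant all lay below the WT arrays for 29 genes in sub2∆ (background 45.9%) and for 26 in tho2∆ (background 39.2%). Complex III had 7 of 9 genes lower in each mutant, while 0 of the complex II genes passed the limma test in either; at an unadjusted p under 0.05, SDH3 was higher in sub2∆ and 0 passed in tho2∆. At that unadjusted threshold 0 of the 39 genes were lower in hpr1∆, 1 was higher in sub2∆ (SDH3) and 1 was higher in tho2∆ (ATP4). The 3 comparisons with WT share the same WT arrays, so they are not independent of each other.

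**Figure D2:**
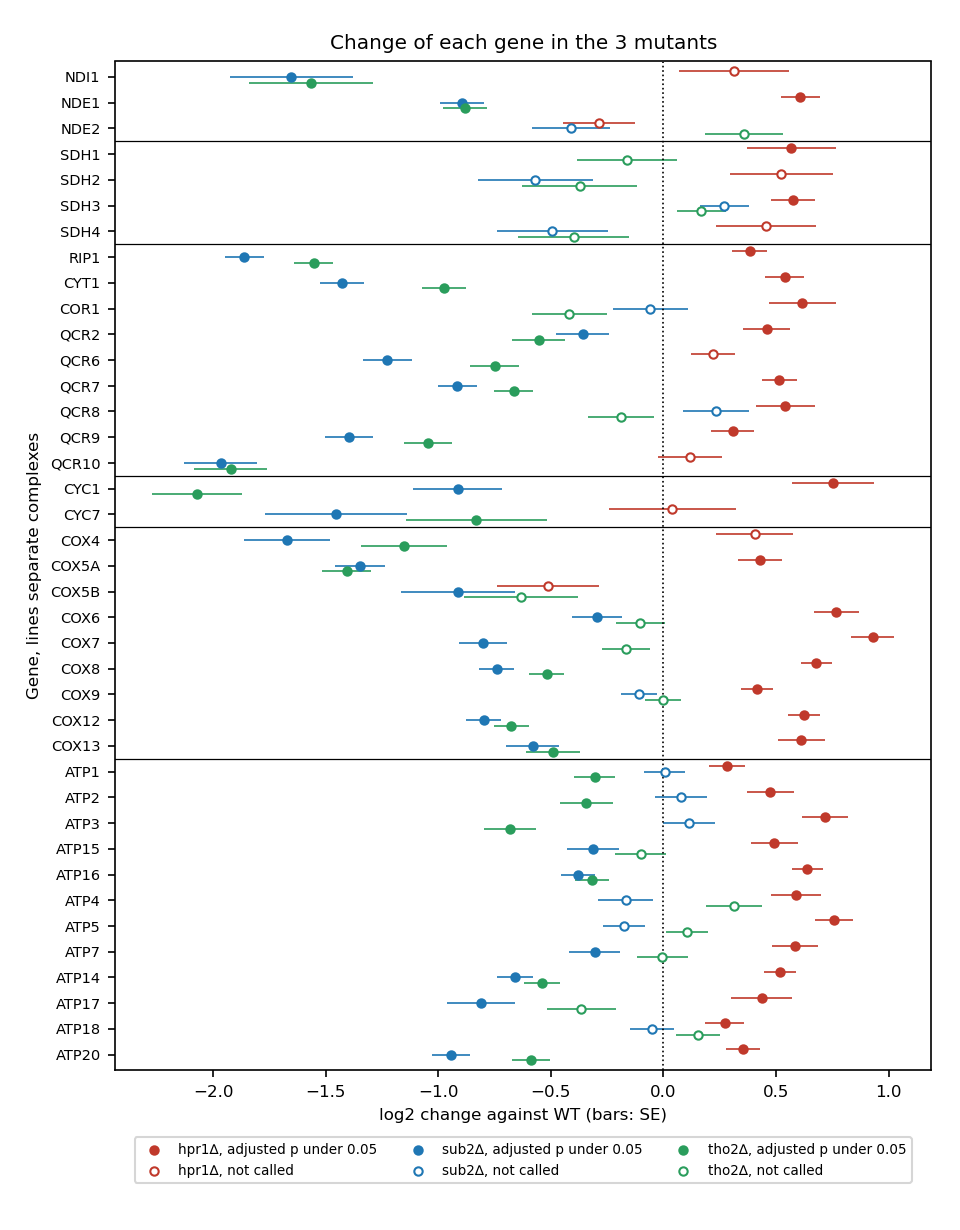
The log2 change of each gene against WT (horizontal axis; points are limma estimates, bars their standard errors) in hpr1∆ (red), sub2∆ (blue) and tho2∆ (green), with filled points for an adjusted p under 0.05. Red points lie right of 0 except for NDE2 and COX5B, and the blue and green points reach furthest left for QCR10, RIP1, CYC1, NDI1 and COX4.

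NDE1 encodes the main external NADH dehydrogenase, which oxidises cytosolic NADH. Its intensity was 7265, 6262 and 6129.7 on the WT arrays, 10595, 9754 and 9571 in hpr1∆, 3609 and 3404 in sub2∆, and 3729.6 and 3357 in tho2∆. The 4 strains fell into 3 separate ranges, with hpr1∆ above WT and the sub2∆ and tho2∆ arrays together below it. NDE1 rose by 0.61 ± 0.09 (SE) on the log2 scale in hpr1∆ (limma adjusted p = 0.000717), and fell by 0.90 ± 0.10 in sub2∆ (limma adjusted p = 7.61e-05) and by 0.88 ± 0.10 in tho2∆ (limma adjusted p = 0.000105).

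NDI1, the internal NADH dehydrogenase, which feeds electrons from the matrix into coenzyme Q, read 2480.0, 1232 and 1209 in WT, 1875, 1938.5 and 1971 in hpr1∆, 457 and 505 in sub2∆, and 464 and 564 in tho2∆. The sub2∆ and tho2∆ arrays lay at less than the lowest WT array, whereas the hpr1∆ arrays lay between WT replicate 1 and the other WT arrays. NDI1 fell by 1.65 ± 0.27 in sub2∆ (limma adjusted p = 0.000847) and by 1.57 ± 0.27 in tho2∆ (limma adjusted p = 0.00137). Its change in hpr1∆ was 0.31 ± 0.25 (limma adjusted p = 0.323), and 0.65 without WT replicate 1 (limma adjusted p = 0.000486).

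NDE2, the second external enzyme, was dim: 260.0 and 178 on the WT arrays with a value, 169 to 181 in hpr1∆, 169 and 147 in sub2∆, and 312 and 252 in tho2∆. It did not pass the test against WT in any mutant. It was the only one of the 39 genes higher in tho2∆ than in hpr1∆, by 0.65 ± 0.16 (limma adjusted p = 0.0158).

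Complex II, the succinate dehydrogenase, belongs to both the citric acid cycle and the chain. SDH3, its cytochrome b anchor subunit, read 2544, 1952 and 2191 in WT, 3085, 3495 and 3362 in hpr1∆, 2652 and 2702.5 in sub2∆, and 2450.4 and 2537 in tho2∆. Every hpr1∆ array was above every other array, and SDH3 rose by 0.58 ± 0.10 (limma adjusted p = 0.00178). Its changes in sub2∆ (0.27 ± 0.11, limma adjusted p = 0.0596) and tho2∆ (0.17 ± 0.11, limma adjusted p = 0.22) did not pass the test.

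SDH1, the flavoprotein subunit, read 5312, 3241 and 2986 in WT and 5293, 5514 and 5763 in hpr1∆. WT replicate 1 thus lay within the hpr1∆ range. SDH1 rose by 0.57 ± 0.20 in hpr1∆ with a limma adjusted p of 0.0492, at the edge of the threshold, a call that was lost in 13 of 20 other ways of processing the values. It read 2955 on the 1 sub2∆ array with a value and 3250.3 and 3396 in tho2∆. SDH2 (iron-sulfur subunit) and SDH4 (membrane anchor) had WT replicate 1 at 4327 and 4247 and the other WT arrays at 2124 to 2375. Without WT replicate 1 all 4 genes of complex II rose in hpr1∆, by 0.76 for SDH4 and 0.84 for SDH2. SDH3 then also passed as higher in sub2∆ (0.37, limma adjusted p = 0.00464) and tho2∆ (0.27, limma adjusted p = 0.0225), and SDH2 as lower in sub2∆ (-0.26, limma adjusted p = 0.0335).

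Complex III, the cytochrome bc1 complex, had 7 of 9 genes lower in sub2∆ and in tho2∆. RIP1 encodes the Rieske iron-sulfur protein, which takes electrons from reduced coenzyme Q. Its intensity was 4288, 3983 and 3887 in WT, 5575, 5243 and 5051 in hpr1∆, 1152 and 1054 in sub2∆, and 1453 and 1289 in tho2∆. No range of a strain overlapped another: hpr1∆ was highest, WT next, then tho2∆ and sub2∆. RIP1 rose by 0.38 ± 0.08 in hpr1∆ (limma adjusted p = 0.00418), fell by 1.86 ± 0.09 in sub2∆ (limma adjusted p = 1.99e-06) and fell by 1.55 ± 0.09 in tho2∆ (limma adjusted p = 5.81e-06).

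CYT1 encodes cytochrome c1, which hands electrons on to cytochrome c. It read 3703, 3354 and 3159 in WT, 5085, 4925 and 4826 in hpr1∆, 1343 and 1170.2 in sub2∆, and 1620.2 and 1830.0 in tho2∆. The ranges again did not overlap and stood in the same order as those of RIP1. The change was 0.54 ± 0.09 in hpr1∆, -1.43 ± 0.10 in sub2∆ and -0.97 ± 0.10 in tho2∆, and all 3 passed the test.

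The small subunits QCR6, QCR7, QCR9 and QCR10 also fell in both sub2∆ and tho2∆. QCR10 had the largest decrease of all 39 genes in sub2∆, 1.97 ± 0.16 on the log2 scale, and fell by 1.92 ± 0.16 in tho2∆. Its arrays read 2199 to 3146 in WT and 2581 to 2837 in hpr1∆, which overlapped, and 566 to 689 in sub2∆ and 605 to 689 in tho2∆. QCR9 fell by 1.40 ± 0.11 in sub2∆ and by 1.05 ± 0.11 in tho2∆, QCR6 by 1.23 and 0.75, and QCR7 by 0.92 and 0.67.

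The core subunits COR1 and QCR2 and the small subunit QCR8 moved less. QCR2 fell by 0.36 ± 0.12 in sub2∆, a call lost in 6 of 21 other ways of processing (-0.24 without WT replicate 2), and by 0.55 ± 0.12 in tho2∆. COR1 had a change of -0.06 ± 0.17 in sub2∆ and -0.42 ± 0.17 in tho2∆, and QCR8 of 0.23 ± 0.15 and -0.19 ± 0.15, none of which passed the test. All 3 rose in hpr1∆, by 0.46 (QCR2), 0.62 (COR1) and 0.54 (QCR8). Within complex III the changes in sub2∆ therefore ran from -1.97 (QCR10) to 0.23 (QCR8). Without WT replicate 1, QCR8 passed the test in sub2∆ as higher, by 0.40 (limma adjusted p = 0.00231), and COR1 in tho2∆ as lower, with a smaller change of -0.23 (limma adjusted p = 0.0428).

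**Figure D3:**
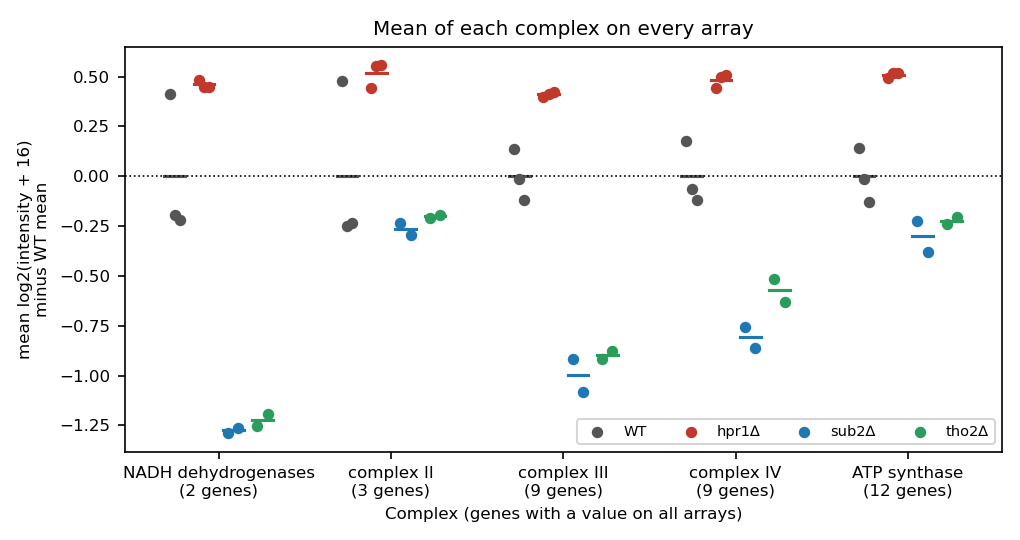
The mean log2(intensity + 16) over the genes of a complex that have a value on all arrays, minus the WT mean (vertical axis), for each array (points) and strain (bars are strain means). Complex III sits at -0.92 and -1.08 in sub2∆ and -0.92 and -0.88 in tho2∆, the ATP synthase at -0.22, -0.38, -0.24 and -0.21, and all 5 complexes at 0.40 to 0.56 in hpr1∆.

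Cytochrome c, the soluble carrier between complexes III and IV, has a gene for the aerobic isoform 1, CYC1, and for isoform 2, CYC7. CYC1 read 4379 and 6509.5 on the WT arrays with a value, 9029.6, 9079.9 and 8925 in hpr1∆, 3117 and 2561 in sub2∆, and 1422 and 1111 in tho2∆. The hpr1∆ arrays were the highest and the tho2∆ arrays the lowest, with no overlap between strains. CYC1 rose by 0.75 ± 0.18 in hpr1∆ (limma adjusted p = 0.0118), fell by 0.91 ± 0.20 in sub2∆ (limma adjusted p = 0.00492) and fell by 2.07 ± 0.20 in tho2∆ (limma adjusted p = 9.64e-05). The last was the largest decrease of the 39 genes in tho2∆.

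CYC7 read 5974, 2760.5 and 2575 in WT, 3344, 3702 and 3730.0 in hpr1∆, 1426 and 1117 in sub2∆, and 1930.3 and 1978 in tho2∆. The sub2∆ and tho2∆ arrays were below all WT arrays, and WT replicate 1 was above all others. CYC7 fell by 1.46 ± 0.31 in sub2∆ (limma adjusted p = 0.00359) and by 0.83 ± 0.31 in tho2∆ (limma adjusted p = 0.049). The tho2∆ call was lost in 12 of 21 other ways of processing, and without WT replicate 1 the change was -0.45 (limma adjusted p = 0.00953). Its change in hpr1∆ was 0.04 ± 0.28, and 0.43 without WT replicate 1 (limma adjusted p = 0.00942).

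Complex IV, the cytochrome c oxidase, has 9 genes here. COX5A encodes the aerobic isoform of subunit V and read 4789.8, 4846 and 4979.6 in WT, 6605, 6561 and 6507 in hpr1∆, 2115 and 1713 in sub2∆, and 2021 and 1652 in tho2∆. The hpr1∆ and WT ranges were narrow and apart, and sub2∆ and tho2∆ overlapped each other well below both. COX5A rose by 0.43 ± 0.10 in hpr1∆ (limma adjusted p = 0.00737) and fell by 1.35 ± 0.11 in sub2∆ (limma adjusted p = 1.82e-05) and by 1.41 ± 0.11 in tho2∆ (limma adjusted p = 1.99e-05).

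COX5B, the isoform of subunit V that replaces COX5A when oxygen is scarce, read 3589.9, 1883 and 1871 in WT, 1603, 1598.5 and 1685 in hpr1∆, 1129 and 1341 in sub2∆, and 1601 and 1400.5 in tho2∆. All mutant arrays lay below all WT arrays. COX5B fell by 0.91 ± 0.25 in sub2∆ (limma adjusted p = 0.0128). The changes in hpr1∆ (-0.51 ± 0.23, limma adjusted p = 0.096) and tho2∆ (-0.63 ± 0.25, limma adjusted p = 0.0606) did not pass the test. It had the lowest change of the 39 genes in hpr1∆. WT replicate 1 was the brightest array for COX5B, and without it the changes shrank to -0.60 in sub2∆, -0.20 in hpr1∆ and -0.32 in tho2∆, the last then called lower (limma adjusted p = 0.0192). The sub2∆ call was lost in 3 of 21 other ways of processing.

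COX12, which encodes subunit VIb, read 4353, 4183 and 3819 in WT, 6288, 6431 and 6332 in hpr1∆, 2478 and 2239 in sub2∆, and 2611 and 2526 in tho2∆. Its ranges were separate in all 4 strains, with hpr1∆ above and tho2∆ and sub2∆ below WT. The change was 0.62 ± 0.07 in hpr1∆ (limma adjusted p = 0.000233), -0.80 ± 0.08 in sub2∆ (limma adjusted p = 4.78e-05) and -0.68 ± 0.08 in tho2∆ (limma adjusted p = 0.000147).

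COX4 (subunit IV) fell by 1.67 ± 0.19 in sub2∆ and by 1.15 ± 0.19 in tho2∆, and COX8 (subunit VIII) by 0.74 and 0.52. COX7 (subunit VII) rose most in hpr1∆, from 2674 to 3305 in WT to 5266 to 5981, and fell by 0.80 ± 0.11 in sub2∆. In tho2∆ its change of -0.16 ± 0.11 did not pass the test. COX6 rose by 0.77 ± 0.10 in hpr1∆ and COX9 by 0.42 ± 0.07, and their changes in tho2∆ were -0.10 ± 0.11 and 0.00 ± 0.08. COX13 (subunit VIa) rose by 0.61 in hpr1∆ and fell by 0.58 in sub2∆ and by 0.49 in tho2∆.

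All 12 genes of the ATP synthase rose in hpr1∆, by 0.27 (ATP18) to 0.76 (ATP5, the oligomycin sensitivity protein that joins the catalytic head to the stalk). Among the catalytic F1 genes, ATP3 (gamma) rose by 0.72 ± 0.10, ATP16 (delta) by 0.64 ± 0.07, ATP15 (epsilon) by 0.49 ± 0.10, ATP2 (beta) by 0.48 ± 0.10 and ATP1 (alpha) by 0.28 ± 0.08. The calls of ATP1, ATP17 and ATP18 were lost in 4, 7 and 7 of 21 other ways of processing.

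ATP20 encodes the membrane subunit g, which takes part in the pairing of ATP synthases. It read 4288, 4046 and 3805 in WT, 4957, 5269.8 and 5281 in hpr1∆, 2026 and 2166 in sub2∆, and 2847 and 2524 in tho2∆. The 4 ranges did not overlap. ATP20 rose by 0.35 ± 0.08 in hpr1∆ (limma adjusted p = 0.00536), and fell by 0.94 ± 0.08 in sub2∆ (limma adjusted p = 2.86e-05) and by 0.59 ± 0.08 in tho2∆ (limma adjusted p = 0.000447).

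ATP14, subunit h of the stalk, read 3299, 3102 and 2994 in WT, 4453, 4499.6 and 4511 in hpr1∆, 2108 and 1850.4 in sub2∆, and 2064 and 2233 in tho2∆. The hpr1∆ arrays were the highest and the sub2∆ and tho2∆ arrays, which overlapped, the lowest. It rose by 0.52 ± 0.07 in hpr1∆, and fell by 0.66 ± 0.08 in sub2∆ and by 0.54 ± 0.08 in tho2∆.

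The other ATP synthase genes differed between sub2∆ and tho2∆. The F1 genes ATP1, ATP2 and ATP3 had changes of 0.01 ± 0.09, 0.08 ± 0.12 and 0.11 ± 0.12 in sub2∆, none called. In tho2∆ they fell by 0.31 ± 0.09, 0.34 ± 0.12 and 0.68 ± 0.12. The calls of ATP1 and ATP2 in tho2∆ were lost in 4 and 11 of 21 other ways of processing, and that of ATP3 in none. In sub2∆ ATP17 (subunit f) fell by 0.81 ± 0.15, ATP16 by 0.38, ATP15 by 0.31 and ATP7 (subunit d) by 0.31, while ATP4 (subunit b), ATP5 and ATP18 did not pass the test. The sub2∆ calls of ATP15 and ATP7 were lost in 11 and 13 of 21 other ways of processing, among them without WT replicate 1. ATP15 changed by -0.16 without sub2∆ replicate 2.

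Setting the counts beside each other, the ATP synthase had 6 of 12 genes lower in sub2∆ and 6 of 12 in tho2∆, none of them by 2-fold. That is 50% in each, near the 40.4% of all probe sets lower in sub2∆ and above the 32.6% in tho2∆. Complex IV had 8 of 9 (88.9%) and 5 of 9 (55.6%) lower, where the sub2∆ call of COX6 was lost in 13 of 21 other ways of processing, and complex III had 7 of 9 (77.8%) in both. The cytochromes c had 2 of 2 and the NADH dehydrogenases 2 of 3 in both, and complex II had 0 of 3 and 0 of 4. Without WT replicate 1 the ATP synthase had 4 of 12 lower in sub2∆ and 5 of 12 in tho2∆, complex IV 7 of 9 and 6 of 9, and complex III 7 of 9 and 8 of 9. Of all probe sets, 43.6% were then lower in sub2∆ and 35.4% in tho2∆. The share of the ATP synthase in sub2∆ thus lay below that of all probe sets. With all arrays, the median change of the tested genes in sub2∆ was -1.23 for complex III, -0.80 for complex IV and -0.24 for the ATP synthase. In tho2∆ these medians were -0.75, -0.52 and -0.31. The differences between complexes are descriptions of the counts and were not tested.

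A decrease of at least 2-fold was reached by 9 genes in sub2∆ (23.7%, background 11.9%), which were QCR10, RIP1, COX4, NDI1, CYC7, CYT1, QCR9, COX5A and QCR6. In tho2∆ 7 genes reached it (17.9%, background 8.44%), which were CYC1, QCR10, NDI1, RIP1, COX5A, COX4 and QCR9. The median over the tested genes was -0.62 in sub2∆ and -0.49 in tho2∆, where all tested probe sets had medians of -0.16 and -0.06.

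Without WT replicate 1, hpr1∆ had 35 of 37 tested genes higher and 0 lower, with QCR6 and COX5B the ones not called, against 27.6% of all probe sets higher and 26.9% lower. The median rose from 0.51 to 0.62. In sub2∆ 22 of 36 were then lower and 2 higher (SDH3 and QCR8), against 43.6% of all probe sets lower and 23.7% higher. In tho2∆ 22 of 37 were lower and 2 higher (SDH3 and ATP4), against 35.4% lower and 27.9% higher. The median moved to -0.58 in sub2∆ and to -0.32 in tho2∆.

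Since WT replicate 2 resembled the sub2∆ and tho2∆ arrays in its empty cells, the mutants were also set against single WT arrays, with no test. Both sub2∆ arrays were below WT replicate 2 for 29 of 36 genes, where 56.7% of all probe sets were, and both tho2∆ arrays for 28 of 37, where 50% were. All 3 hpr1∆ arrays were above WT replicate 1 for 29 of 39 genes (44.2% of all probe sets) and above WT replicate 3 for 37 of 39 (42.9%). The part of the empty cells in the results was not tested beyond these values and the block for such arrays.

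Other scalings moved the whole of the sub2∆ comparison. After each array's median was subtracted, the median of all probe sets moved from -0.16 to -0.03, and the share of higher among all calls from 34% to 46.8%. Then 21 of the 38 genes were lower in sub2∆ and 1, SDH3, was higher, with a median of -0.48. Of all probe sets, 31.3% were then lower and 27.5% higher. In hpr1∆ 30 genes were higher and 0 lower under both other scalings tried. After quantile normalization 26.3% of all probe sets were higher and 18.3% lower in hpr1∆. After subtraction of array medians these shares were 26.9% and 19.4%.

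The mutants were also compared directly, without WT in the contrast. Between tho2∆ and hpr1∆ 34 of 39 genes were lower in tho2∆ (87.2%, background 22.3%) and 1 was higher (2.56%, background 15.4%), with a median of -0.96. CYC1 differed most, by -2.83 ± 0.18 (limma adjusted p = 7.73e-05), followed by QCR10 with -2.04 ± 0.16 and RIP1 with -1.94 ± 0.09. All 4 complex II genes, which had not passed the test in tho2∆ against WT, were lower in tho2∆ than in hpr1∆. Quantile normalization moved the share of higher among all calls in this comparison from 40.8% to 29.7%, with 34 of the genes lower and 0 higher. Of all probe sets, 27.1% were then lower and 11.5% higher.

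Between sub2∆ and hpr1∆ 35 of 38 genes were lower in sub2∆ (92.1%, background 35.6%) and 0 higher (background 16%; also 0 at an unadjusted limma p under 0.05), with a median of -1.14. RIP1 differed most, by -2.25 ± 0.09 (limma adjusted p = 3.33e-06), and then QCR10 by -2.09 ± 0.16. All 12 ATP synthase genes were lower, by 0.28 to 1.30 on the log2 scale. The 2 comparisons share the hpr1∆ arrays.

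Between sub2∆ and tho2∆ 9 of 38 genes were called (23.7%), close to the background of 20.8% in this fit. The number called moved widely with the processing, as described further below. Of the 9 called genes 3 were higher (7.89%, background 8.56%) and 6 lower (15.8%, background 12.2%). CYC1 was higher in sub2∆ by 1.16 ± 0.20 (limma adjusted p = 0.00721), ATP3 by 0.79 ± 0.13 (limma adjusted p = 0.00409) and ATP2 by 0.42 ± 0.13 (limma adjusted p = 0.0484). NDE2 was lower in sub2∆ by -0.77 ± 0.17 and COX7 by -0.64 ± 0.12, and CYT1, QCR6, ATP4 and ATP20 by -0.35 to -0.48.

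The split of this comparison depended on the scaling. Of all calls 41.1% were higher in sub2∆ as deposited, 70.7% after quantile normalization and 71.3% after subtraction of array medians. Of the 9 calls, only that of ATP3 was kept under all alternatives tried. Those of CYC1 and COX7 were lost only without tho2∆ replicate 2 (limma adjusted p = 0.0561 and 0.0603).

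For the 3 pairs of genes whose products stand in for each other, the log2 difference between the members was taken on each array. Because probes of different genes bind differently, only its change between strains is read, and each pair was tested across the 4 strains with an exact permutation test of the F statistic, adjusted over the 3 pairs. COX5A minus COX5B was 1.06 ± 0.56 (SD, n = 3) in WT, 2.00 ± 0.05 (SD, n = 3) in hpr1∆, 0.62 ± 0.39 (SD, n = 2) in sub2∆ and 0.28 ± 0.07 (SD, n = 2) in tho2∆. It differed between the strains (exact permutation p = 0.0202, adjusted p = 0.0302). The difference was highest in hpr1∆, where every array was above every other array, and WT replicate 1, at 0.41, lay within the sub2∆ range and the other WT arrays at 1.36 and 1.40. The adjusted p was 0.0571 to 0.0631 without any 1 hpr1∆ array and 0.0542 without tho2∆ replicate 2.

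NDE1 minus NDE2 was 4.85 ± 0.19 (SD, n = 2) in WT, 5.72 ± 0.03 (SD, n = 3) in hpr1∆, 4.34 ± 0.07 (SD, n = 2) in sub2∆ and 3.58 ± 0.10 (SD, n = 2) in tho2∆. The strains did not overlap, and the exact permutation p of 0.000794 was the smallest the test can give (adjusted p = 0.00238). CYC1 minus CYC7 was -0.45 and 1.33 on the WT arrays with both values, 1.26 to 1.43 in hpr1∆, 1.12 and 1.19 in sub2∆, and -0.44 and -0.82 in tho2∆. Here WT spanned nearly the whole range, and the test did not pass (exact permutation p = 0.0802, adjusted p = 0.0802). The adjusted p was 0.0119 without WT replicate 1 and 0.025 without WT replicate 3, each leaving WT with 1 array.

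**Figure D4:**
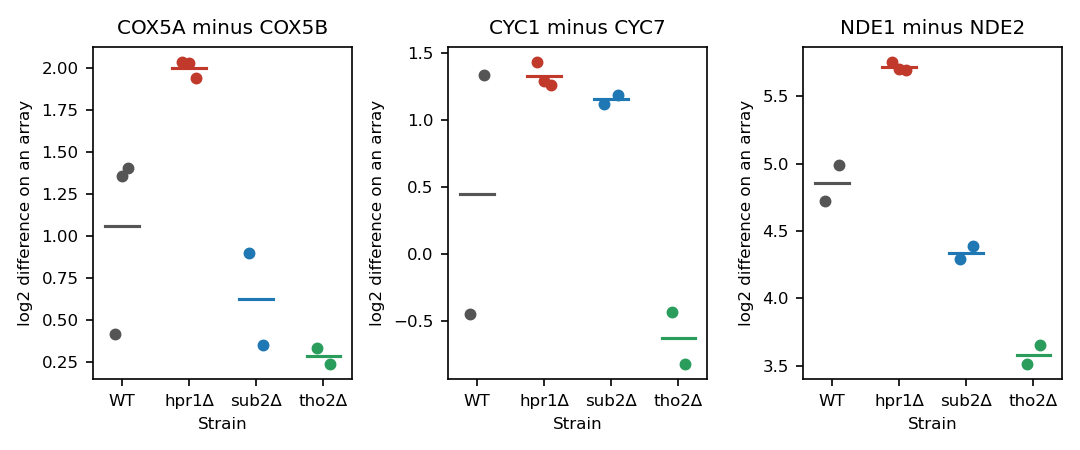
The log2 difference between the 2 genes of each pair on each array (points; bars are strain means) by strain, for COX5A and COX5B, CYC1 and CYC7, and NDE1 and NDE2. The 3 hpr1∆ arrays are highest in the COX5 and NDE pairs, the tho2∆ arrays are lowest in the NDE pair, and the WT arrays are spread from -0.45 to 1.33 in the CYC pair.

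The genes varied little between arrays of a mutant and more in WT. The mean SD over the genes was 0.05 on the log2 scale in hpr1∆, 0.10 in tho2∆, 0.12 in sub2∆ and 0.23 in WT, beside 0.07, 0.09, 0.10 and 0.21 over all probe sets. The limma standard errors and p-values pool the spread of a probe set over the strains, so they do not reflect this difference between strains.

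HAP4, the gene for the activating subunit of the Hap2/3/4/5 complex, fell in all 3 mutants, including hpr1∆, where the genes of the chain were higher. It read 6817, 5505 and 5615 in WT, 3019, 3069 and 2894 in hpr1∆, 822 and 884 in sub2∆, and 1167 and 1318 in tho2∆. No strain overlapped another, with WT highest and sub2∆ lowest. HAP4 fell by 0.99 ± 0.09 in hpr1∆ (limma adjusted p = 0.000106), by 2.78 ± 0.11 in sub2∆ (limma adjusted p = 1.12e-06) and by 2.25 ± 0.11 in tho2∆ (limma adjusted p = 4.02e-06). Without WT replicate 1 it fell by 0.89, 2.68 and 2.15.

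Of the other subunits of that complex, HAP5 fell in all 3 mutants, by 0.38 ± 0.11 in hpr1∆, 1.09 ± 0.12 in sub2∆ and 0.64 ± 0.12 in tho2∆. HAP2 fell by 0.67 ± 0.12 in sub2∆ and by 0.37 ± 0.12 in tho2∆ (lost in 4 of 21 other ways of processing), with a change of 0.01 ± 0.11 in hpr1∆. HAP3 fell in tho2∆ by 0.65 ± 0.19, and its changes in hpr1∆ (-0.37 ± 0.17) and sub2∆ (0.11 ± 0.19) did not pass the test. HAP1 fell by 0.87 ± 0.17 in hpr1∆ and by 0.69 ± 0.19 in sub2∆ (lost in 4 of 21), with a change of -0.44 ± 0.19 in tho2∆ that did not pass. ROX1 fell by 1.03 ± 0.25 in sub2∆ and by 0.72 ± 0.25 in tho2∆ (lost in 10 of 21), and its change in hpr1∆ was 0.11 ± 0.22.

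Over a list of 13 regulators of respiratory genes, 2 rose and 4 fell in hpr1∆, 0 rose and 7 of 9 tested fell in sub2∆, and 0 rose and 7 of 10 fell in tho2∆. The shares lower were 30.8%, 77.8% and 70%, against 22.8%, 40.4% and 32.6% of all probe sets, and the share higher in hpr1∆ was 15.4% against 22.8%. At an unadjusted limma p under 0.05, 0 were higher in sub2∆ or tho2∆. The regulator that rose most in hpr1∆ was ADR1, an activator of glucose-repressed genes, by 1.18 ± 0.24. SNF1, the kinase that relieves glucose repression, fell by 0.72 ± 0.09 in sub2∆ and by 0.71 ± 0.09 in tho2∆. RTG3, of the pathway that signals from mitochondria to the nucleus, fell by 0.75 ± 0.12 in hpr1∆ and by 0.66 ± 0.13 in tho2∆.

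Genes for assembly factors and translation activators of the same complexes were lower in all 3 mutants, in hpr1∆ too. Of 50 listed genes 4 rose and 26 fell in hpr1∆, with a median of -0.24. The list also held PET9, an ADP/ATP carrier rather than an assembly factor, which was among those that rose in hpr1∆. In sub2∆ 3 rose and 29 fell of 42 tested (median -0.83), and in tho2∆ 3 rose and 31 fell of 42 (median -0.74). The shares lower, 52%, 69% and 73.8%, stand beside the backgrounds of 22.8%, 40.4% and 32.6% given above. In hpr1∆, where 30 of the 39 subunit genes rose, 26 of these 50 fell; the difference between the lists was not tested.

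Several assembly factors of complex IV had large decreases. COX17, a copper chaperone, fell by 1.09 ± 0.11 in hpr1∆, 1.90 ± 0.13 in sub2∆ and 1.86 ± 0.13 in tho2∆. COX15, which makes heme A, fell by 0.76 ± 0.12, 2.07 ± 0.13 and 1.77 ± 0.13. PET117, an assembly factor, fell by 1.57 ± 0.13, 1.27 ± 0.15 and 1.56 ± 0.15, and SHY1 by 0.77, 2.06 and 1.68. COX14, a regulator of COX1 translation, fell by 0.42, 1.49 and 1.36, and CBP3, which acts in cytochrome b synthesis, by 0.33, 0.95 and 0.96. Another cytochrome b factor, CBP6, fell by 0.58 in hpr1∆ and by 1.65 in tho2∆, and OXA1, the insertase of the inner membrane, by 0.57, 1.07 and 1.14. ATP22, a translation factor for an ATP synthase subunit, instead rose by 0.73 ± 0.09 in hpr1∆.

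**Figure D5:**
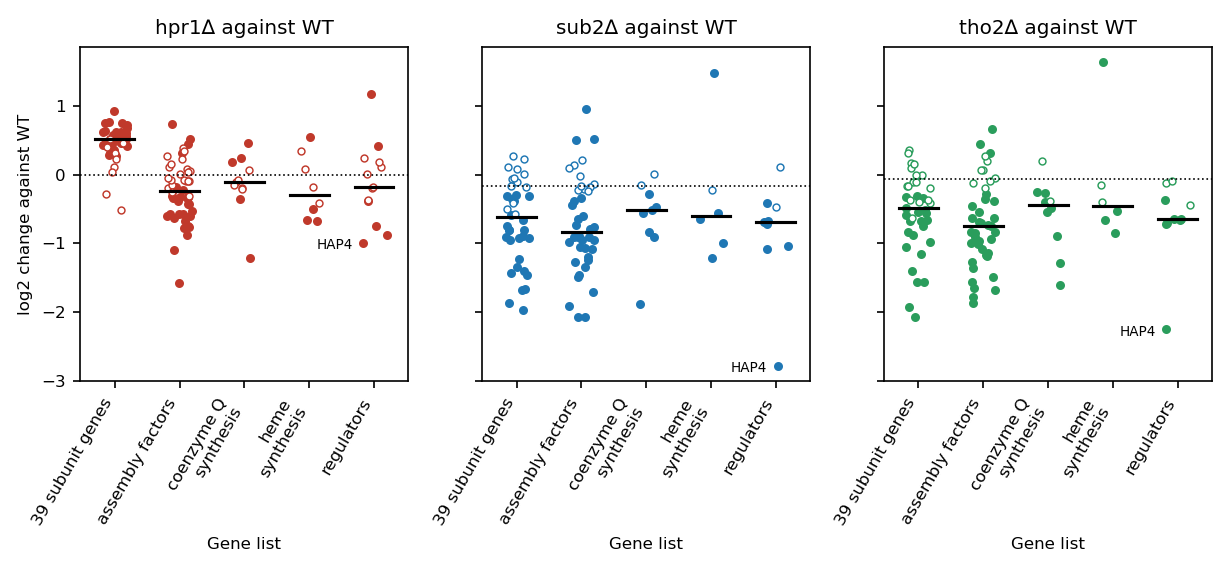
The log2 change against WT (vertical axis) of each tested gene of 5 lists in hpr1∆, sub2∆ and tho2∆, with filled points for an adjusted p under 0.05, bars for list medians and a dotted line for the median of all probe sets. In hpr1∆ the subunit genes have a median of 0.51 and the assembly factors of -0.24, and HAP4 lies at -0.99, -2.78 and -2.25.

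Smaller proteins bound to the complexes did not all move with the subunits. Of 7 measured, 3 rose and 1 fell in hpr1∆, 0 rose and 4 fell in sub2∆, and 0 rose and 2 fell in tho2∆, with the same counts of 0 at an unadjusted limma p. The shares lower were 14.3%, 57.1% and 28.6%, of which the first and the last lie below the 22.8% and 32.6% of all probe sets, and the share higher in hpr1∆ was 42.9% against 22.8%. INH1, the inhibitor of ATP hydrolysis by the ATP synthase, rose by 1.77 ± 0.23 in hpr1∆, from 409 to 870.1 in WT to 1903 to 2036, and had changes of 0.15 ± 0.25 in both sub2∆ and tho2∆. ATP19 and TIM11, 2 further ATP synthase subunits, rose by 0.54 and 0.35 in hpr1∆, and fell by 0.66 and 0.44 in sub2∆. RCF1, which joins complexes III and IV, fell in all 3 mutants, by 0.38, 1.20 and 0.88. The subunits encoded in mitochondrial DNA and COX26 were not analysed here.

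Genes known to respond to glucose or oxygen were read on the same arrays. HXT1, the low-affinity glucose transporter induced by high glucose, fell by 3.21 ± 0.14 in hpr1∆, fell by 2.30 ± 0.15 in sub2∆ and fell by 2.33 ± 0.15 in tho2∆. It read 10191 to 13417 in WT and 1174 to 2639 on the mutant arrays. The other listed glucose-induced transporters moved less. HXT3 fell by 0.99 in hpr1∆, 0.74 in sub2∆ and 0.84 in tho2∆. HXT4 fell by 0.59 in hpr1∆ and 0.58 in sub2∆, and its change of -0.25 in tho2∆ did not pass the test. Of 13 glucose-repressed genes 4 rose and 3 fell in hpr1∆, 2 rose and 4 fell in sub2∆, and 4 rose and 3 fell of 11 tested in tho2∆. The shares lower, 23.1%, 30.8% and 27.3%, are near or below those of all probe sets (22.8%, 40.4% and 32.6%), and the shares higher, 30.8%, 15.4% and 36.4%, stand beside 22.8%, 20.8% and 24.4%. Of 8 genes listed as hypoxic, 0 rose (0 also at an unadjusted limma p) and 1 of 7 tested fell in hpr1∆. In sub2∆ 2 rose and 3 of 6 fell, and in tho2∆ 3 rose and 3 of 7 fell. Here 14.3%, 50% and 42.9% were lower and 0%, 33.3% and 42.9% higher, beside the same backgrounds. The list also held ROX1, the repressor of HEM13 and ANB1 rather than a hypoxic gene. ROX1 was among those counted as fallen in sub2∆ and tho2∆. HEM13 read 3883 to 5173 in hpr1∆, 11687 and 11964 in sub2∆, and 12948 and 13354 in tho2∆, and ANB1 1325 to 1433, 3720.1 to 3769, and 4915 to 5116. The sub2∆ and tho2∆ arrays and WT replicate 1 were thus high for both, though ANB1 was not called in sub2∆. TIR1 had the lowest adjusted p of the hypoxic genes in each comparison with WT and went the other way. It fell by 2.49 ± 0.10 in hpr1∆, 2.65 ± 0.12 in sub2∆ and 1.30 ± 0.12 in tho2∆. TIR2 fell by 1.69 ± 0.24 in sub2∆. The part of the hypoxic genes in the changes of the respiratory genes was not tested.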

How the data were processed

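Total RNA was labelled with biotin and read on 1-colour Affymetrix arrays, per the labels' protocols. The values the authors deposited are linear intensities of 5716 probe sets on 10 arrays; their background correction, scaling and summary method are not known here, since no source used gives them. No value was given in 3220 of 57160 cells (5.63%), with no reason stated, and each such array was left out for that probe set alone. Genes were named from the platform annotation, which gives 1 gene to 5498 probe sets and none to 218. A gene with several probe sets is shown by the one with the highest mean over all arrays.

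Strain means of log2(intensity + 16) over all 10 arrays were compared in 6 contrasts with limma 3.58.1 in R 4.3.3 (linear model, moderated variance). A probe set was tested where both strains had at least 2 values. P-values were adjusted by Benjamini-Hochberg over all probe sets tested in a contrast, and a call is an adjusted p under 0.05. The procedure was tested on simulated data. The 3 paralog pairs were tested by exact permutation of the F statistic over the arrays.

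All 39 genes are described. Values on every array are printed for the 2 genes of each complex with the lowest adjusted p against WT, for the paralog pairs and for HAP4. Of the other lists up to 4 genes with the lowest adjusted p in a comparison, and always HAP1 to HAP5 and ROX1, are named. COR1, QCR6, QCR7, QCR8, QCR9, QCR10 and other members are given by their changes. Arrays named for WT replicate 1, and INH1, HXT1, HEM13, ANB1 and TIR1, have values shown after they were seen. The members and the lists were chosen with earlier results of these data known, so no test over a list was made. Arrays have no read depth, and their number, 2 or 3 per strain, limits the precision.

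Replicate numbers did not pair the arrays: the 13 same-numbered pairs of arrays of different strains correlated at -0.20 to 0.09 in their deviations from the strain means. Alternatives were other offsets (1 and 64), leaving out the dimmest 25% of probe sets, quantile normalization, subtraction of array medians, fitting only the strains compared, array weights, a replicate block, a block for arrays with many empty cells, only probe sets with values on all arrays, means over probe sets of a gene, and leaving out each array in turn.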

Additional observations from a re-analysis of the deposited data

How the results depend on the processing

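The direction of the 39 genes as a group was the same under all alternatives for the comparisons with WT and with hpr1∆, and the counts against WT stayed within 1.5 times. Leaving out each array in turn gave 24 to 35 called genes in hpr1∆ against WT, 21 to 25 in sub2∆ and 19 to 24 in tho2∆. The medians then ran from 0.44 to 0.62 in hpr1∆ (0.62 without WT replicate 1), from -0.74 to -0.54 in sub2∆ and from -0.56 to -0.32 in tho2∆. The median of sub2∆ was -0.48 after subtraction of array medians, and that of tho2∆ -0.40 with array weights and -0.40 with a block for the arrays with many empty cells. That block left 23 calls between tho2∆ and hpr1∆, against 35. The median between sub2∆ and hpr1∆ ran from -1.19 to -1.04 without single arrays. The comparison of sub2∆ with tho2∆ was the least stable: 9 calls became 4 with quantile normalization, 21 with array weights and 2 to 19 without single arrays. Its median of -0.20 became -0.10 with quantile normalization and -0.0786 with array medians subtracted. With quantile normalization 9.89% of all probe sets were higher and 4.09% lower in this comparison, beside 3 and 1 of the genes. Shares of all probe sets are not given beside the other counts of this section. Those counts therefore do not tell a change of these genes from one of all probe sets. The adjusted exact permutation p ran from 0.00179 to 0.0631 without single arrays for COX5A minus COX5B, and from 0.0119 to 0.267 for CYC1 minus CYC7. Quantile normalization turned the sign of AEP3 in hpr1∆ (0.023) and of MF(ALPHA)1 (-0.39) and MF(ALPHA)2 (-0.39) in tho2∆. With the replicate block the counts were 28, 23 and 22 against WT in hpr1∆, sub2∆ and tho2∆, 33 for tho2∆ and 33 for sub2∆ against hpr1∆, and 6 for sub2∆ against tho2∆. The labels do not say that the numbers pair the arrays. Of the calls against WT, 25 of 30 in hpr1∆, 20 of 25 in sub2∆ and 17 of 22 in tho2∆ were kept under all alternatives. Of the single-gene results of the members, 231 of those recomputed lost their call and 96 gained one. The causes were not tested. Signal over background could not be judged, since no detection call was used here.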

Other observations

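Coenzyme Q carries electrons from the NADH dehydrogenases and complex II to complex III. Of 11 genes for its synthesis 3 rose and 2 fell in hpr1∆, 0 rose and 7 of 9 tested fell in sub2∆, and 0 rose and 8 of 10 tested fell in tho2∆ (limma; at an unadjusted p under 0.05 also 0 were higher in sub2∆ and tho2∆). In hpr1∆ 27.3% higher and 18.2% lower stand near the 22.8% of all probe sets in each direction, and the 77.8% and 80% lower in sub2∆ and tho2∆ stand beside 40.4% and 32.6%. COQ11 fell in all 3 mutants, by 1.21 ± 0.17 in hpr1∆, 1.88 ± 0.20 in sub2∆ and 1.60 ± 0.20 in tho2∆ on the log2 scale. COQ1, which makes the side chain of coenzyme Q, fell by 0.35 ± 0.10 in hpr1∆ and by 1.28 ± 0.11 in tho2∆, and COQ9 rose by 0.45 ± 0.10 in hpr1∆. Of 10 other electron donors and carriers, 4 rose and 1 fell of 9 tested in hpr1∆. In sub2∆ 0 rose and 3 fell of 7 tested, and in tho2∆ 0 rose and 4 fell of 7. At an unadjusted limma p under 0.05 also 0 were higher in both. The shares lower were 11.1%, 42.9% and 57.1%, beside 22.8%, 40.4% and 32.6% of all probe sets. The share higher in hpr1∆ was 44.4%, beside 22.8%. AAC1 fell by 0.71 ± 0.08 in hpr1∆, 0.86 ± 0.09 in sub2∆ and 0.41 ± 0.09 in tho2∆. GUT2, the mitochondrial glycerol-3-phosphate dehydrogenase, rose by 1.53 ± 0.12 in hpr1∆ and CYB2, the lactate dehydrogenase that reduces cytochrome c, by 1.40 ± 0.09. DLD1, the D-lactate dehydrogenase, fell by 0.66 ± 0.12 in sub2∆ and by 0.77 ± 0.12 in tho2∆. MIR1, the phosphate carrier that supplies the ATP synthase, rose by 0.53 ± 0.07 in hpr1∆ and fell by 0.49 ± 0.08 in tho2∆. The major ADP/ATP carrier PET9, which stood in the list of assembly factors as well as in that of carriers, rose by 0.52 ± 0.08 in hpr1∆ and fell by 0.46 ± 0.09 in tho2∆.

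Of 8 genes of heme synthesis 1 rose and 3 fell in hpr1∆, 1 rose and 4 of 6 tested fell in sub2∆, and 1 rose and 3 of 6 tested fell in tho2∆. The shares lower were 37.5%, 66.7% and 50%, beside 22.8%, 40.4% and 32.6% of all probe sets, and the shares higher 12.5%, 16.7% and 16.7%, beside 22.8%, 20.8% and 24.4%. HEM2 fell by 0.65 ± 0.07 in hpr1∆, 0.99 ± 0.08 in sub2∆ and 0.85 ± 0.08 in tho2∆, and HEM12 by 0.68, 1.22 and 0.65. HEM1, which catalyses the first step, fell by 0.50, 0.64 and 0.52. HEM14 was the gene that rose in hpr1∆, by 0.55 ± 0.07, and HEM13 the gene that rose in sub2∆, by 1.48. HEM13 also rose by 1.63 ± 0.52 in tho2∆ (limma adjusted p = 0.0248). The tho2∆ call was lost in 6 of 21 other ways of processing. Among them were the replicate block and leaving out WT replicate 2, WT replicate 3 or either tho2∆ array.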
